A study of Mus musculus with 7 samples.

Results

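Windows of 200 bp that carried BRG1 reads in every library of the series were examined: 412 of the 12075523 autosomal windows that lie between the first and the last input read of their chromosome. BRG1 is the motor protein of SWI/SNF, a complex that remodels chromatin, and DNA bound to it was recovered from mouse CD4+ T helper cells with an antibody and sequenced (ChIP-seq). A window was a member when it held at least 4 RPM (reads per 1000000 distinct reads of the library) in each of the 6 BRG1 libraries, and when every one of these values was at least 3 times the sum of the input RPM and 0.3. Distinct reads are those left when 1 read is kept per chromosome, 5′ end and strand. The rule used the BRG1 and input levels themselves, so these levels are given below as a description, with no test.

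The cells came from Balb/c mice aged 4 to 6 weeks, and no mouse number, clone or genetic change is named. Naive cells were CD4+CD62L+ cells of the spleen and lymph nodes, purified to 95% and used directly. Resting Th1 cells had been cultured from naive cells for a single round with plate-bound anti-CD3 and anti-CD28, IL-12 at 1 ng/ml and an antibody against IL-4, then expanded in IL-2. Resting Th2 cells were cultured in the same way with IL-4 at 10 ng/ml and an antibody against IFNγ. Stimulated Th1 and Th2 cells were such effector cells after 1.5 h with PMA (50 ng/ml) and ionomycin (at a concentration of 500 ng/ml). Stimulated Th17 cells received the same stimulus after culture with soluble anti-CD3 and anti-CD28, antibodies against IL-4 and IFNγ, and the cytokines IL-6 (100 ng/ml), IL-1β (10 ng/ml) and TGF-β (1 ng/ml), followed by IL-23 (10 ng/ml) during expansion. PMA and ionomycin act downstream of the T cell receptor, so the stimulus is not antigen. The input was sheared DNA of pooled CD4+ T helper cells without immunoprecipitation. All groups share the strain and the MNase and sonication steps, and each has 1 library.

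SWI/SNF complexes use the energy of ATP to slide or evict nucleosomes and thereby alter the access of transcription factors to DNA. They are brought to promoters and enhancers by transcription factors and by acetylated histones, and BRG1 and its paralogue BRM are alternative motors of the complex. In T helper cells, BRG1 is known for its part in the opening of cytokine genes during differentiation and after activation. Members are given by position on mm9, the build of the files. The gene and promoter tables at hand are on GRCm38, so no gene name and no base sequence is attached to a window here.

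The libraries held between 1340260 distinct reads (resting Th2) and 7893017 (stimulated Th17), and the input held 3531974. The minimum of 4 RPM therefore meant 9 reads in naive cells, 8 and 6 in Th1 and Th2 at rest, and 16, 18 and 32 in stimulated Th1, Th2 and Th17. Reads that repeated a 5′ end and strand made up 28.5 to 41.4% of the 3 unstimulated libraries, 10.2 to 11.8% of the 3 stimulated ones and 7.23% of the input. Depth and repetition thus differed in step with stimulation, and the effects of these on a ratio cannot be told apart. Each group has a single library, so a ratio sets 1 library against another and has no replicate check. The 95% intervals of ratios in single windows, pooled ratios and densities cover counting error only, and PCR copies carry no molecular identifiers. Those of medians over members rest on the spread between windows, and those of shares take windows or reads as trials. Neighbouring windows are not independent trials, and no interval covers variation between samples. Defining marker genes of the labelled cell types were not examined, for want of gene positions on mm9.

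Both thresholds were met in at least 1 BRG1 library by 22241 windows, of which the 412 members make up 1.85%. A further 12188 windows passed in exactly 1 library and 778 in exactly 5. The size of the shared set followed the libraries with the fewest passing windows. Naive had 2615 and stimulated Th17 had 2819, against 6444 and 8757 in Th1 and Th2 at rest, and 11784 and 8724 after stimulation. Members made up 15.8% of the naive windows (14.4 to 17.2) and 14.6% of the stimulated Th17 windows (13.3 to 16.0), but 3.50% of those of stimulated Th1 (3.17 to 3.84). Every member passes in each library by the rule, so these shares restate the passing counts and measure no further difference. Among the 778 windows that passed in 5 libraries, stimulated Th17 was the missing library in 485, with a median of 3.55 RPM there, and naive in 219, with a median of 2.90 RPM. Resting Th2 was the missing one in 37, resting Th1 in 24, stimulated Th2 in 10 and stimulated Th1 in 3. Leaving stimulated Th17 out of the rule gave 897 windows, and leaving naive out gave 631.

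The input condition removed more windows than it left. At least 4 RPM in all 6 BRG1 libraries were present in 1194 windows, and 782 of these did not reach 3 times the input term in every library. Their median input level was 3.40 RPM, against 0.849 RPM in the members. Stimulated Th17 was below the multiple in 760 of the 782, and naive in 607. All 6 libraries were below it in 313, while 129 missed it in stimulated Th17 alone. Input was at or above the lowest BRG1 level in 154 of the 782 and in 0 of the members, as the rule requires.

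Windows close to the thresholds differed by few reads. Just inside the minimum, the window on chromosome 5, 110295601 to 110295800, had 32 reads in stimulated Th17 (4.05 RPM) and 19 in stimulated Th2 (4.46 RPM). Just outside, chromosome 17, 88374001 to 88374200, had 34 and 17 reads, the latter 3.99 RPM. At the input condition, chromosome 16, 87432801 to 87433000, was inside with a lowest BRG1 level of 4.31 RPM in stimulated Th17 and 4 input reads (1.13 RPM), a multiple of 3.01. Chromosome 14, 63796801 to 63797000, was outside with 5.95 RPM and 6 input reads (1.70 RPM), a multiple of 2.98.

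The members formed 364 regions when windows at most 200 bp apart were joined. A single window made up 323 regions (88.7%), 36 had 2 windows and 5 had 3 or more, and the widest were 800 bp. The 2 regions of 800 bp lay on chromosome 15, 102236001 to 102236800, and on chromosome 17, 57171001 to 57171800. Regions of 600 bp included chromosome 10, 128133201 to 128133800. In the first of these, the best window had 19.3 RPM in naive cells, 18.8 and 21.6 in Th1 and Th2 at rest, 27.3, 21.8 and 11.9 in stimulated Th1, Th2 and Th17, and 2.27 in the input. That window was thus highest in stimulated Th1 and lowest in stimulated Th17.

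The strongest shared region, ranked by its lowest BRG1 level, lay on chromosome 1, 46910201 to 46910800. Its best window had 38.6 RPM in naive cells, 48.1 and 59.7 in Th1 and Th2 at rest, 52.3, 55.8 and 24.3 in stimulated Th1, Th2 and Th17, and 3.68 in the input. These values stand for 80, 87, 80, 205, 238, 192 and 13 distinct reads in that order. Stimulated Th17 was the lowest BRG1 library there and resting Th2 the highest.

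On chromosome 15, 79377001 to 79377400, the best window had 32.3 RPM in naive cells, 56.4 and 64.2 in Th1 and Th2 at rest, 53.1, 48.3 and 22.4 in stimulated Th1, Th2 and Th17, and 3.11 in the input. Chromosome 19, 7016001 to 7016200, had 25.6, 48.1, 56.0, 47.2, 49.3, 19.5 and 2.83 RPM in the same order. Chromosome 2, 32307401 to 32307800, had 26.1, 45.9, 50.0, 37.5, 38.7, 18.8 and 2.83 RPM. In these 3 windows resting Th2 was the highest library and stimulated Th17 the lowest, with naive next to it.

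A different order was seen on chromosome 8, 86590401 to 86590800, where naive was lowest with 18.3 RPM, followed by stimulated Th17 with 18.9 and resting Th1 with 30.4, and resting Th2 was highest with 51.5. On chromosome 11, 3093201 to 3093400, naive had 34.8 RPM, more than resting Th1 with 23.8 and resting Th2 with 23.1, while stimulated Th1 had 36.2 and stimulated Th17 16.7. That window also had the highest input level of the members, 4.25 RPM. The other 4 of the 10 strongest regions lay on chromosome 19, 12039801 to 12040200 and 40662801 to 40663000, chromosome 6, 51419801 to 51420200, and chromosome 11, 69805001 to 69805200. Their lowest BRG1 level was 14.5 to 16.0 RPM and their input level 1.13 to 3.11 RPM.

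Shared regions were spread over all 19 autosomes and were mostly far apart. The median gap between neighbouring regions of a chromosome was 2287400 bp, and 4 of 345 gaps were at most 10 kb and 27 at most 50 kb. The largest groups with gaps of up to 50 kb held 3 regions each and lay on chromosome 7, 52185001 to 52242200, chromosome 10, 80141001 to 80205200, and chromosome 8, 86722401 to 86794600. Most members nevertheless lay beside other BRG1 windows: 69.7% (65.0 to 74.1) touched a window that passed in at least 1 library. The same share was 56.7% (53.1 to 60.2) for windows passing in 5 libraries and 31.9% (31.1 to 32.7) for windows passing in 1. A single peak can reach across the border between neighbouring windows. Levels rose with the class as well, with median stimulated Th1 levels of 11.0, 7.91 and 3.06 RPM in members and in windows passing in 5 and in 1. The part of peak spread and level in these shares was not tested.

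Chromosome 11 held the most members, 52 (12.6%, 9.57 to 16.2), followed by chromosome 7 with 42 (10.2%, 7.45 to 13.5) and chromosome 2 with 36. Chromosome 11 accounted for 6.01% of the autosomal input reads, 8.87% of the windows passing in 5 libraries (6.97 to 11.1) and 9.001% of those passing in 1 (8.50 to 9.52). For chromosome 7 these figures were 5.56, 8.74 and 6.51%. Windows passing in 2, 3 and 4 libraries had 10.1, 10.5 and 10.1% on chromosome 11, which held the most windows in every class. At the other end, chromosome 13 held 5 members (1.21%, 0.395 to 2.81) with 4.90% of the input reads, and chromosome 1 held 14 (3.40%, 1.87 to 5.64) with 7.68%.

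Around the regions, BRG1 density formed a narrow peak that stood on a broad base. In the central 200 bp, which the rule used, the mean density was 83.2 times the autosomal mean of the library in stimulated Th17, 113 times in naive and 144 to 168 times in the other 4 libraries. At 50% of its top, the peak was 200 bp wide in steps of 100 bp in each BRG1 library. The centre is a window of 200 bp chosen for its reads, so this width is partly set by the choice of windows. The flanks hold other members in 43 of the 364 regions, where the rule bears on them too. At 500 to 1000 bp from the centre the density was still 6.80 times the autosomal mean in naive (6.50 to 7.10) and 8.83 times in stimulated Th17 (8.66 to 8.998). At 1000 to 2000 bp it was 3.33 times in naive (3.18 to 3.48) and 5.39 times in stimulated Th17 (5.30 to 5.48). In the 321 regions with no other member within 2000 bp, these values were 6.19 and 8.44 at 500 to 1000 bp, and 3.23 and 5.41 at 1000 to 2000 bp.

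**Figure D1:**
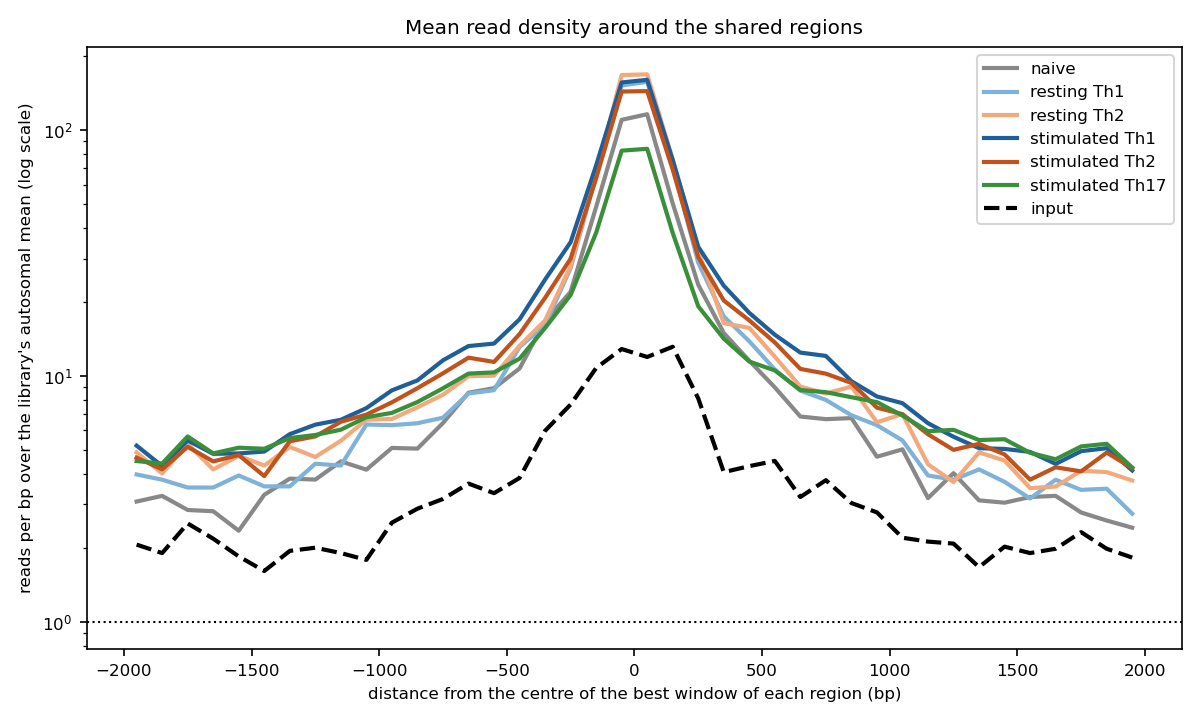
Mean density of distinct reads, as a multiple of each library's autosomal mean on a log scale, against the distance in bp from the centre of the best window of each of the 364 regions. Lines are the 6 BRG1 libraries (solid) and the input (dashed). The central values were selected by the rule, stimulated Th17 is the lowest BRG1 line at the centre and lies above naive beyond 1000 bp, and the input has a broad rise of its own.

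The input was itself raised at these windows. Its mean over the members was 0.974 RPM, 12.3 times its autosomal mean per window, although the rule only limits the input from above. At 500 to 1000 bp from the centre it was 3.29 times the mean (3.13 to 3.45), and at 1000 to 2000 bp 1.99 times (1.90 to 2.08). Windows passing in 5 libraries had 13.03 times the autosomal mean in input and windows passing in 1 had 7.07 times. No input read fell in 29 members (7.04%), against 25.4% of the windows passing in 1 library. Taken over the input at the same distance, BRG1 density at 500 to 1000 bp was 2.06 times the input in naive and 2.74 times in stimulated Th17. The part of the raised input in the BRG1 levels was not tested.

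Reads of the plus and minus strands stood on opposite sides of the centre in every BRG1 library. The highest density of 5′ ends lay 30 to 70 bp to the left of the centre for the plus strand and 50 to 70 bp to the right for the minus strand, a distance of 100 to 140 bp. In the input the highest densities did not have this order, with the plus strand at 50 bp and the minus strand at 10 bp to the right. These rest on only 2177 and 2059 reads. The median positions of the input did have it, at -17 bp (left of the centre) for the plus strand and 34 bp for the minus strand. In the BRG1 libraries the medians lay further out, at -57 to -47 bp and 52 to 58 bp. Members had 49.6 to 50.5% of their distinct BRG1 reads on the plus strand. The shift of 75 bp in the rule favours windows with such an offset, so its size is partly set by the choice of windows.

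Repeated reads, which the rule leaves out, were much more frequent in the members than in the libraries as a whole. In stimulated Th17, 63.7% of the reads in members (63.3 to 64.1) repeated a 5′ end and strand, against 10.2% in the whole library. The figures were 55.1% against 11.4% in stimulated Th1 and 59.8% against 11.8% in stimulated Th2. In the unstimulated libraries they were 57.8% against 41.4% in naive, 53.4% against 28.5% in resting Th1 and 54.8% against 36.6% in resting Th2. The 6 BRG1 libraries, which differ widely in overall repetition, thus had 53.4 to 63.7% in the members. Input had 14.5% (12.8 to 16.3) in the same windows. It held a median of 3 distinct reads per member there, against 15 to 47 in the BRG1 libraries, so the comparison is not like for like. In the 782 windows that missed the input condition, the input had a median of 12 distinct reads and 78.4% repeated reads.

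In naive and in the 3 stimulated libraries, the share of repeated reads was higher the more libraries a window passed in, while resting Th1 and Th2 had slightly lower shares at 3 libraries than at 2. In stimulated Th17 it was 26.3% in windows passing in 1 library, 41.6% in windows passing in 3, 50.5% in windows passing in 5 and 63.7% in members. In stimulated Th1 it was 21.3, 34.3, 42.5 and 55.1% in the same steps. In naive it was 42.5, 45.3, 51.2 and 57.8%. The input had 13.3, 15.9 and 19.6% in windows passing in 1, 3 and 5 libraries and a lower share, 14.5%, in members. Its medians were only 1 to 3 distinct reads per window. The rule limits the input level from above, and the part of this limit in the input shares was not tested. Windows that pass in more libraries also hold more distinct reads, with a median of 13 in stimulated Th17 for windows passing in 1 library and 47 in members, and the part of read density in the repeated share was not tested.

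**Figure D2:**
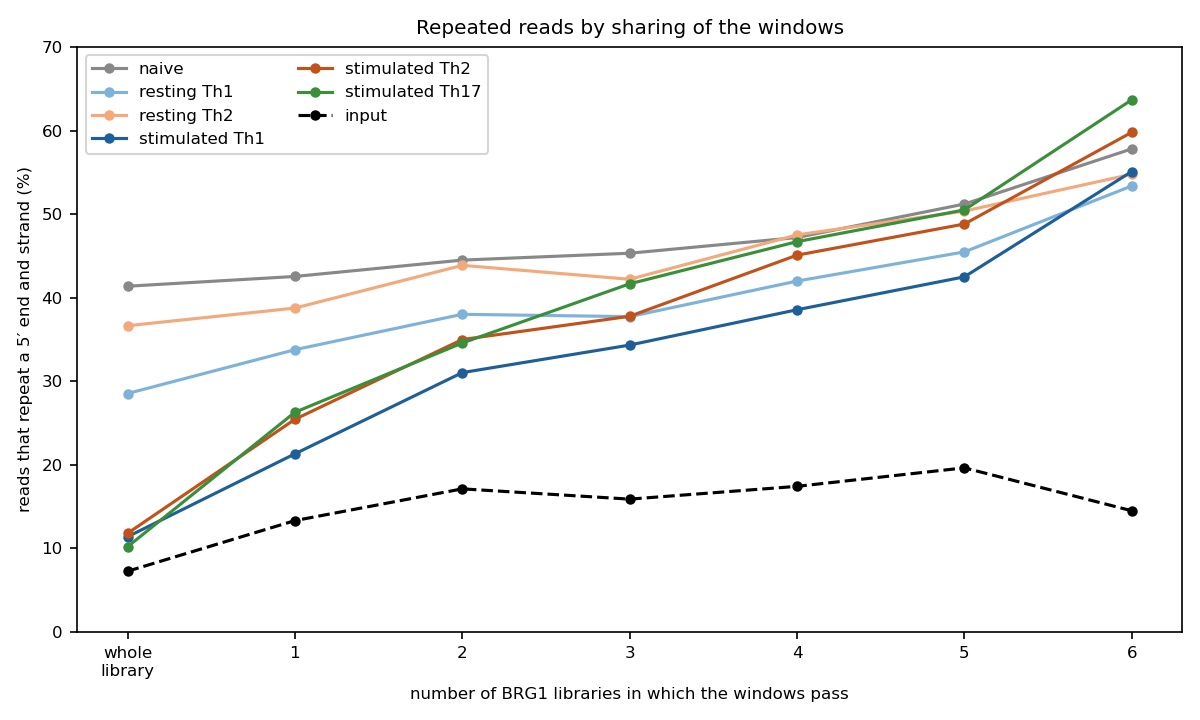
Percentage of all reads that repeat a 5′ end and strand (y axis), for each whole library and for windows passing in 1 to 6 BRG1 libraries (x axis), 1 line per library. In the members the 6 BRG1 lines lie between 53.4 and 63.7%, and the dashed input line lies at 14.5%.

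Each window offers 400 combinations of base and strand at which a counted 5′ end can lie. Distinct reads occupied a median of 11.8% of these in stimulated Th17, 10.8% in stimulated Th1, 10.3% in stimulated Th2 and 3.75 to 4.75% in the unstimulated libraries. The highest occupancy was 59.5%, in stimulated Th2. When 1 read is kept per position, a window cannot exceed its number of positions, whatever the depth. A single copy was found for 57.4% of the distinct ends in stimulated Th17 and 43.8% in naive, while 12.2% and 10.3% had 5 or more. The most frequent single end held a median of 9.89% of a window's reads in stimulated Th17 and 16.3% in naive, so the repeats were not confined to 1 position per window.

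Ends with many copies recurred at the same base and strand in other libraries. Of the ends with 5 or more copies in stimulated Th1, 95.9% were also present in stimulated Th2, 74.7% in resting Th1, 64.3% in naive and 14.2% in input. Ends with 1 copy in stimulated Th1 were present in stimulated Th2 in 30.1% of cases, in naive in 11.0% and in input in 2.07%. From the naive side, 87.1% of the ends with 5 or more copies and 47.8% of those with 1 copy were found in stimulated Th1. For scale, stimulated Th2 had a distinct end at 12.4% of the positions of the members, naive at 4.67% and input at 0.860%. Read ends are not spread evenly inside a window, as the strand profile shows, so these occupancies are no exact yardstick.

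In 195 of the 412 members (47.3%), the most frequent end was the same base and strand in 3 or more of the 6 libraries, and in 11 it was the same in all 6. In the window on chromosome 19 from 40662801, the end at base 40663054 of the minus strand was the most frequent in 5 libraries, with 39 and 25 copies in Th1 and Th2 at rest, and 99, 109 and 193 in stimulated Th1, Th2 and Th17. Naive had its most frequent end at base 40662908 of the plus strand, with 58 copies. In the window on chromosome 15 from 79377001, base 79377139 of the minus strand led in naive (26 copies), resting Th1 (94) and resting Th2 (76). The neighbouring base 79377140 led in stimulated Th1 (131) and stimulated Th2 (225), and base 79377261 in stimulated Th17 (204). Nearly the same read end thus led in 5 of the 6 libraries there.

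Over all members, the median level was 7.72 RPM in naive cells, 10.5 and 11.2 in Th1 and Th2 at rest, and 11.0, 9.62 and 5.95 in stimulated Th1, Th2 and Th17. The ranges between the quartiles overlapped among the 4 resting and stimulated Th1 and Th2 libraries, from 8.02 to 16.4 RPM in resting Th2 and from 7.27 to 13.8 RPM in stimulated Th2. Stimulated Th17 was the lowest of the 6 libraries in 283 members (68.7%) and naive in 85 (20.6%). The highest library was resting Th2 in 157 members, stimulated Th1 in 121, resting Th1 in 91, stimulated Th2 in 28, naive in 15 and stimulated Th17 in 0. The ratio of the highest to the lowest library had a median of 2.37 and ran from 1.15 to 6.26; it was under 2 in 100 members and over 5 in 5.

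With all reads kept in the same 412 windows the order changed. Medians were then 9.91 RPM in naive cells, 14.2 and 12.8 in Th1 and Th2 at rest, 18.0, 15.8 and 11.1 in stimulated Th1, Th2 and Th17, and 0.788 in the input. Naive became the library most often lowest, in 192 members, and stimulated Th17 was lowest in 86. In the strongest region on chromosome 1, stimulated Th17 went from 24.3 RPM, the lowest of the 6, to 123 RPM, above naive with 79.8, resting Th1 with 85.8 and resting Th2 with 85.1. The last place of stimulated Th17 and the first place of resting Th2 thus held with repeats removed and not with all reads.

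**Figure D3:**
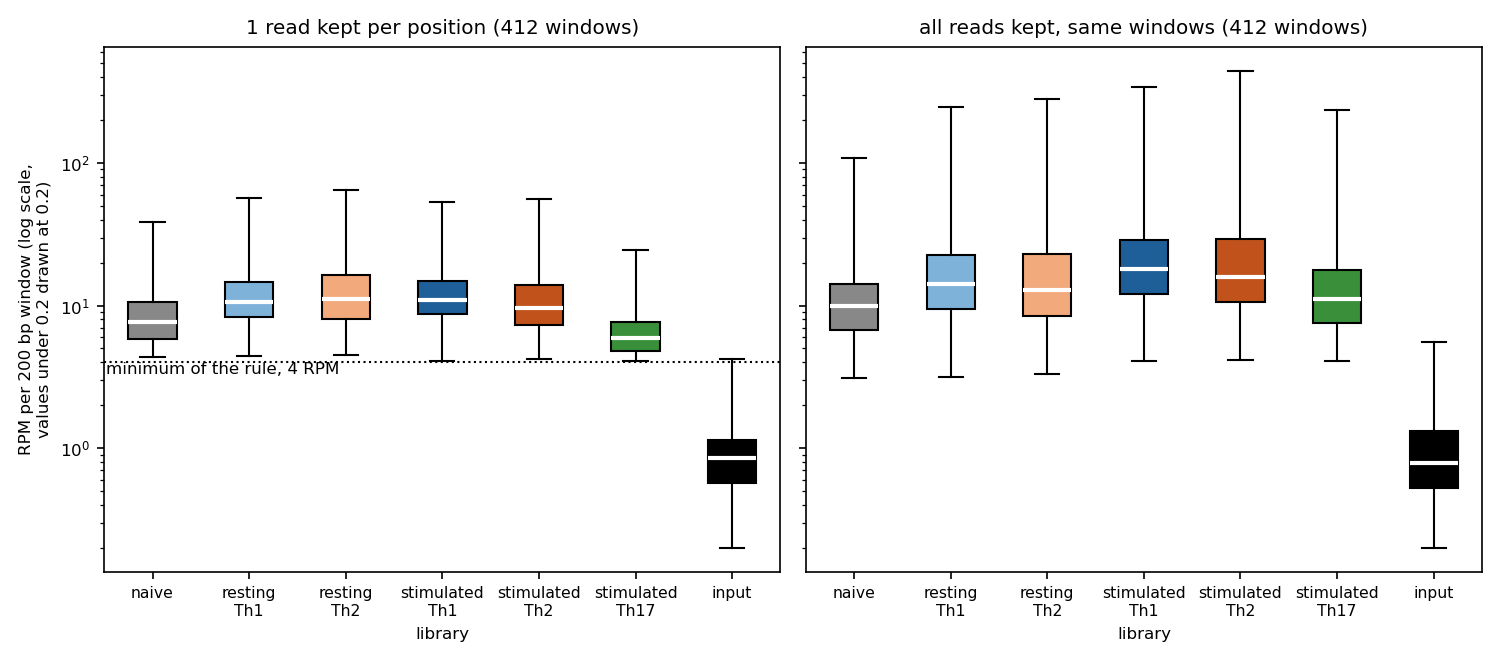
RPM per window on a log axis in the 412 members for the 6 BRG1 libraries and input, with 1 read kept per position (left) and with all reads kept in the same windows (right). Boxes span the quartiles, white lines are medians and whiskers reach the lowest and highest member, with values under 0.2 RPM drawn at 0.2. On the left stimulated Th17 is the lowest BRG1 library with a median of 5.95 RPM, and on the right naive is, with 9.91 RPM.

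Levels of the members moved together between libraries, most closely between the stimulated ones. Pearson's r of log2 RPM over the 412 windows was 0.89 between stimulated Th1 and Th2, 0.82 between stimulated Th2 and Th17, and 0.81 between stimulated Th1 and Th17. It was 0.75 between the resting libraries, 0.76 between resting and stimulated Th2 and 0.72 between resting and stimulated Th1. The lowest value, 0.60, was between naive and resting Th2. Windows of 1 library share its depth, and the stimulated libraries are the deeper ones, so these values carry no p and rank no conditions.

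In 8 pairs of libraries, the ratio of RPM was taken in each member, and windows counted as higher or lower were those with a change of 2-fold or more whose exact interval left out 1. The same was done in all 22241 windows that passed in at least 1 library. Since members must hold at least 4 RPM in every library, a narrower range of ratios is built into them, and the counts are given beside that background without a reading.

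Stimulated and resting libraries were compared first with repeats removed. The median ratio of stimulated to resting Th1 was 1.04 (0.989 to 1.08), an interval that includes 1, with 15 members higher and 8 lower, while in the background 25.6% of windows were higher and 6.56% lower and the median was 1.57. The median ratio of stimulated to resting Th2 was 0.876 (0.825 to 0.904), with 0 members higher and 19 lower, against 13.8% and 8.75% in the background and a median of 1.20. All 3 stimulated libraries lay above all 3 unstimulated ones in 2 members, where the background had 25.2%, and below them in 24 members (5.83%), where it had 5.84%. No member was counted as higher in both subsets (background 9.9%), 4 were lower in both (background 1.94%), and 0 were counted in opposite directions (background 0.045%). With all reads kept the medians were 1.28 in Th1 and 1.29 in Th2, against 1.75 and 1.48 in the background. Ratios were above 1 in Th2 in 299 of the 412 members then, against 143 without repeats. Both the window counts and the library totals differ between these scales. Before division by the totals, the median ratio of reads in Th2 was 2.78 without repeats and 2.94 with them, while the ratio of the totals was 3.18 and 2.28, so the reversal came mainly from the totals, which move every window alike. In Th1 the ratio of reads was 2.26 and 2.24, and that of the totals 2.17 and 1.75. The Th2 median also crossed 1 with repeats removed after reads had been thinned to equal totals. It was then 1.04, over the members chosen from those reads. Counts of called members moved with the scale as well: with all reads, 63 members were higher and 15 lower in Th1 (background 36.1% and 10.2%), and 74 were higher and 14 lower in Th2 (background 29.3% and 12.4%). With each ratio divided by the background median, 1 was higher and 75 were lower in Th1 (13.6% and 16.4%), and 0 were higher and 47 lower in Th2 (9.48% and 14.0%).

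In the flanks the stimulated libraries were higher in both subsets. At 500 to 1000 bp from the centre, the pooled ratio of distinct reads was 1.49 in Th1 (1.42 to 1.57) and 1.17 in Th2 (1.11 to 1.23). At 1000 to 2000 bp it was 1.41 (1.34 to 1.48) and 1.10 (1.04 to 1.16). In the central 200 bp it was 1.04 (1.01 to 1.06) and 0.863 (0.839 to 0.888) without repeats, and 1.34 in both subsets with all reads. In the 321 regions with no other member in their flanks, the ratio at 500 to 1000 bp was 1.50 in Th1 (1.42 to 1.59) and 1.21 in Th2 (1.14 to 1.29). Over all 364 regions with all reads, the flank ratios were 1.57 in Th1 and 1.33 in Th2 at 500 to 1000 bp, and 1.40 and 1.13 at 1000 to 2000 bp. On that scale and over all regions, the flanks were above the centre in Th1 and not in Th2. This contrast was not seen at 500 to 1000 bp in the 321 regions with no other member in their flanks. With all reads, Th2 there had 1.26 in the centre, 1.37 at 500 to 1000 bp and 1.10 at 1000 to 2000 bp. Th1 had 1.29, 1.61 and 1.36 in the same order. Without repeats, the median ratio over all windows passing in at least 1 library was 1.57 in Th1 and 1.20 in Th2.

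Differentiation was compared in the resting libraries. Resting Th1 over naive had a median ratio of 1.39 (1.32 to 1.43), with 39 members higher and 0 lower, against 11.9% and 0.787% of background windows and a background median of 1.83. For resting Th2 over naive it was 1.41 (1.30 to 1.55), with 83 higher and 0 lower, against 19.6% and 0.724% and a median of 2.32. Keeping all reads gave 1.50 and 1.30. Both comparisons use the same naive library. Divided by the background median, a scale that sets the median of all passing windows to 1, the medians were 0.758 and 0.606. On that scale 0 members were higher and 41 lower in resting Th1 (background 2.42% and 5.19%), and 1 was higher and 91 were lower in resting Th2 (2.40% and 7.67%). With all reads, 99 were higher and 4 lower in resting Th1 (24.7% and 2.59%), and 107 were higher and 16 lower in resting Th2 (32.1% and 3.47%).

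Between subsets, resting Th1 and Th2 had a median ratio of 0.939 (0.906 to 0.988), with 4 members higher in Th1 and 6 higher in Th2 (background 1.74% and 4.83%). With all reads kept the median ratio was 1.09, on the other side of 1. Stimulated Th1 and Th2 had a median ratio of 1.12 (1.09 to 1.15), with 1 member higher in Th1 and 0 higher in Th2 (background 6.41% and 4.03%), and 1.09 with all reads.

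Stimulated Th17 was lower than the other stimulated subsets across the members. The median ratio was 0.525 to stimulated Th1 (0.511 to 0.550), with 172 members lower and 0 higher, and 0.602 to stimulated Th2 (0.586 to 0.624), with 100 lower and 0 higher. In the background 40.2% and 33.1% of windows were lower, 1.74% and 2.13% were higher, and the medians were 0.496 and 0.579, so the medians of the members lay close to those of all BRG1 windows. With all reads kept the medians were 0.624 and 0.676, with 106 members lower than stimulated Th1 (background 38.6%), 72 lower than stimulated Th2 (34.8%) and 3 higher in each comparison. With ratios divided by the background median, 1 was lower and 16 were higher than stimulated Th1 (background 7.32% and 9.33%), and 0 were lower and 5 higher than stimulated Th2 (10.3% and 9.07%). At 1000 to 2000 bp from the centre the pooled ratio was 0.993 to stimulated Th1 (0.963 to 1.02) and 1.08 to stimulated Th2 (1.05 to 1.11). In the 321 regions with no other member in their flanks these ratios were 1.02 (0.991 to 1.06) and 1.11 (1.07 to 1.14).

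**Figure D4:**
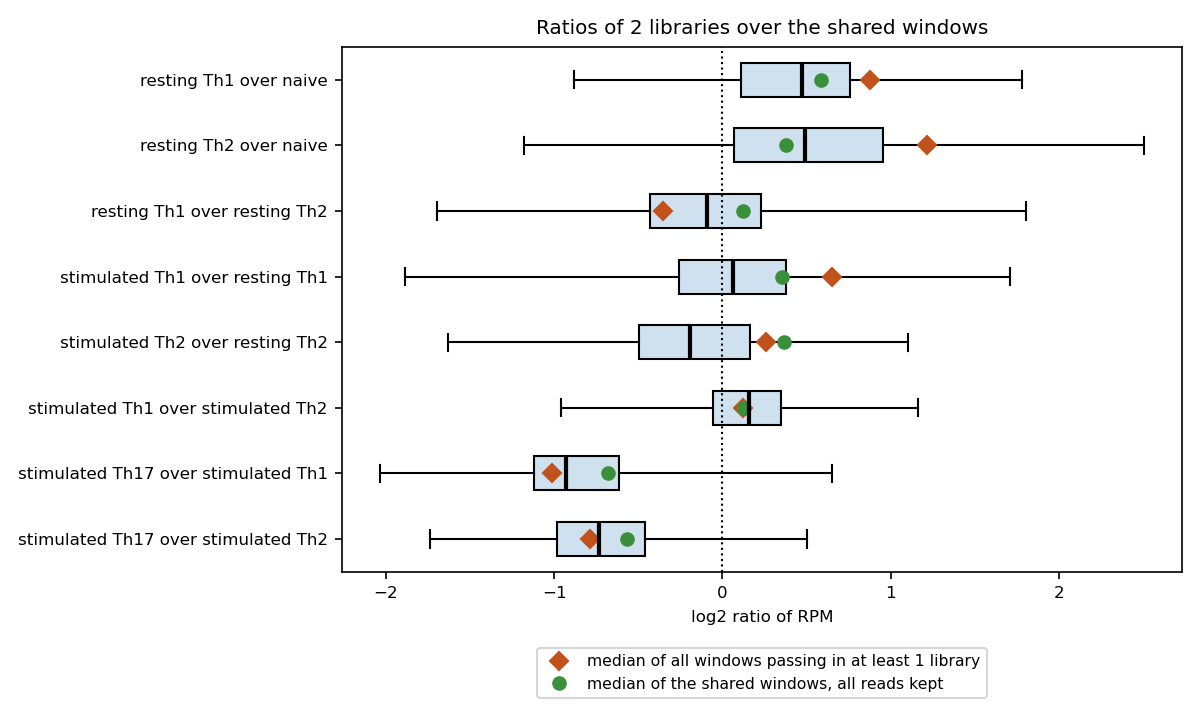
Log2 ratio of RPM in the 412 members for 8 pairs of libraries with repeats removed: boxes span the quartiles, black lines are medians and whiskers reach the lowest and highest member. Diamonds are medians over all 22241 windows passing in at least 1 library and circles are medians of the members with all reads kept; for stimulated over resting Th2 the black line lies below 0 and the circle above it.

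No pair out of 8 was counted as different in 161 members (39.1%; 17.8% of the background). With repeats removed, the steadiest window lay on chromosome 8, 80134601 to 80134800, with 4.34 RPM in naive cells, 4.98 and 4.48 in Th1 and Th2 at rest, 4.34, 4.93 and 4.81 in stimulated Th1, Th2 and Th17, and 0.849 in the input. It was less even with all reads kept, with 7.64 RPM in naive cells, 5.54 and 3.31 in Th1 and Th2 at rest, and 6.11, 6.83 and 6.60 in stimulated Th1, Th2 and Th17. The window was picked out after its values were seen, and its 6 BRG1 values without repeats lie just above the minimum and rest on 6 to 38 reads each.

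Members at the ends of the range of stimulated over resting levels are described next, and since that ratio chose them, their intervals show precision and test nothing. They were ranked by the mean of both stimulated Th1 and Th2 libraries over the mean of both resting ones. The highest was on chromosome 8, 77557801 to 77558000, with 6.08 and 11.2 RPM in Th1 and Th2 at rest, 19.9, 15.5 and 8.36 in stimulated Th1, Th2 and Th17, 10.1 in naive cells and 0.283 in the input. Its ratio was 3.27 in Th1 (1.73 to 6.82) and 1.38 in Th2 (0.781 to 2.61). Stimulated Th1 was its highest library and resting Th1 its lowest.

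On chromosome 11, 60749001 to 60749200, resting Th1 had 6.64 RPM, resting Th2 8.21, stimulated Th1 15.3, stimulated Th2 14.8, stimulated Th17 7.86, naive 4.34 and input 0.849. The ratios were 2.31 in Th1 (1.23 to 4.71) and 1.80 in Th2 (0.941 to 3.79). Chromosome 2, 11699201 to 11699400, had the most reads of this group, with 108 and 118 reads in stimulated Th1 and Th2 against 24 and 21 at rest, and its ratios were 2.08 (1.32 to 3.38) and 1.77 (1.10 to 2.96). The remaining windows of this group lay on chromosome 8, 14992801 to 14993000, and chromosome 7, 133540201 to 133540400. All 5 had a higher combined ratio with all reads kept, 2.75 to 5.13, than without repeats, 1.91 to 2.05. A rise is not particular to them, since the change of library totals raises every such ratio. Over all members the medians rose from 1.04 to 1.28 in Th1 and from 0.876 to 1.29 in Th2.

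The lowest was on chromosome 14, 26336801 to 26337000, with 16.0 and 14.2 RPM in Th1 and Th2 at rest, 4.34, 4.93 and 4.81 in stimulated Th1, Th2 and Th17, 8.20 in naive cells and 0.566 in the input. Stimulated libraries were 3.70-fold lower in Th1 (1.96 to 7.17) and 2.88-fold lower in Th2 (1.46 to 5.62). All 3 stimulated values lay under all 3 unstimulated ones. Chromosome 7, 4691201 to 4691400, had 13.8 RPM in resting Th1 and 25.4 in resting Th2 against 5.87 and 8.21 after stimulation, 2.36-fold lower in Th1 (1.28 to 4.34) and 3.09-fold lower in Th2 (1.87 to 5.10). Chromosome 3, 130860401 to 130860600, had 23 and 15 reads at rest against 18 and 21 in the deeper stimulated libraries, and 0 in input. In RPM it was 2.77-fold lower in Th1 (1.43 to 5.44) and 2.27-fold lower in Th2 (1.09 to 4.62). The other windows of this group lay on chromosome 3, 95429201 to 95429400, and chromosome 5, 141178201 to 141178400. With all reads kept the 5 windows had combined ratios of 0.250 to 0.551, so their direction did not depend on repeats.

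The choice of members was repeated on a random 50% of the distinct reads of every library, and the chosen windows were measured in the other reads. The rule then gave 431 windows, 273 of which are members. In the reads not used for the choice, 170 of them (39.4%) met both thresholds in all 6 libraries again and 278 (64.5%) in 5 or 6, while 9 met them in none. By library, the thresholds were met again in 90.3% (87.1 to 92.9) and 88.6% of windows in stimulated Th1 and Th2, 83.5% and 81.0% in Th1 and Th2 at rest, 64.3% (59.5 to 68.8) in naive cells and 55.9% (51.1 to 60.7) in stimulated Th17.

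Median BRG1 levels changed by at most 12.5% between the parts, most in resting Th2. Both parts come from the same libraries, so they say nothing about repeat experiments. Median RPM in the unused reads was 7.73 in naive against 7.72 in the reads used, 11.1 against 11.1 in Th1 and 10.4 against 11.9 in Th2 at rest. After stimulation it was 11.2 against 10.7 in Th1, 9.85 against 9.86 in Th2 and 5.58 against 5.83 in Th17. The median input went from 0.567 to 1.13 RPM, since low input was part of the choice. BRG1 exceeded the input in the unused reads in 414 of 431 windows in naive, 421 in stimulated Th17 and 431 in stimulated Th1.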

How the data were processed

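Each library came as a deposited file of read positions, on mm9 per the submitters' processing notes, with reads of 34 bases and a line for every repeat. No source used here names the aligner. From these positions distinct reads were counted: 5′ ends were moved 75 bp inward, and 200 bp windows were tiled from base 0 on the 19 autosomes. Totals for RPM hold every distinct read of a file. Ratios carry conditional exact intervals, other shares Clopper-Pearson intervals, levels around regions Poisson intervals, and medians over members order-statistic intervals, all at 95%. Named windows are the 10 regions with the highest lowest level, the 5 widest, the 5 members at each end of the stimulated to resting ratio and windows beside each threshold. The members and lists were chosen with earlier results of these data known. Planned gene lists, motif searches and distances to gene starts were not run, since the tables at hand are on GRCm38. The steps were tested on simulated data. Python 3.11.15, NumPy 2.4.6, pandas 2.3.3 and SciPy 1.17.1 were used.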

Additional observations from a re-analysis of the deposited data

Results flagged for a closer look

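The median ratio of stimulated to resting levels over the 412 members lay above 1 in Th1, at 1.04 with an interval that includes 1 (0.989 to 1.08), and below 1 in Th2, at 0.876, each from 1 pair of libraries and with repeats removed. The difference between the subsets was not tested, and with all reads kept, which also changes the library totals, the medians were 1.28 and 1.29, on the same side. The Th2 median was also above 1, at 1.04, with repeats removed after reads had been thinned to equal totals, over the members chosen from those reads. On chromosome X, which the rule leaves out, 2 windows met both thresholds in all 6 BRG1 libraries, 0.794% (0.0963 to 2.84) of the 252 windows there that passed in at least 1 library, against 1.85% (1.68 to 2.04) on the autosomes. The window from 166428201 to 166428400 had 10.6 RPM in naive cells, 13.8 and 13.4 in Th1 and Th2 at rest, 15.3, 11.0 and 7.73 in stimulated Th1, Th2 and Th17, and 0.849 in the input. The window from 70163601 to 70163800 had 5.32 to 11.1 RPM in the BRG1 libraries and 0.283 in input.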

How the results depend on the processing

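The number of members was within 1.5 times of 412, and of regions within 1.5 times of 364, with a shift of 100 bp, a moved grid, autosomal totals, distinct reads thinned to 1340260, a random 50% of the reads, or any of resting Th1, resting Th2, stimulated Th1 and stimulated Th2 left out of the rule. Joining no gap gave 369 regions and a gap of 1000 bp 364. Members and regions numbered 714 and 623 with all reads kept, 696 and 616 at a minimum of 3 RPM, 164 and 138 at 6 RPM, 635 and 567 at 2 times the input, 198 and 183 at 5 times, 631 and 576 without naive, 897 and 779 without stimulated Th17, and 657 and 583 with reads thinned to equal totals of 2114977 before repeats were removed. That last alternative, and counting the same members with all reads, were chosen after seeing the data. Median ratios over the members are given in the order resting Th1 over naive, resting Th2 over naive, resting Th1 over Th2, stimulated over resting Th1, stimulated over resting Th2, stimulated Th1 over Th2, Th17 over Th1 and Th17 over Th2. Divided by the median of all passing windows they were 0.758, 0.606, 1.20, 0.665, 0.731, 1.03, 1.06 and 1.04, so 6 of the 8 directions were reversed by that scale, which by construction sets the median of all these windows to 1. With the same members and all reads they were 1.50, 1.30, 1.09, 1.28, 1.29, 1.09, 0.624 and 0.676. Where all reads also chose the members, ratios outside the interval of the reported median were 1.45 for the first pair, 1.04 for the third and 1.21, 1.18, 1.06, 0.597 and 0.651 for the last 5. Reads thinned to equal totals gave 1.18, 1.04, 1.08, 0.663 and 0.709 for the last 5 pairs, which reversed stimulated over resting Th2. Distinct reads thinned to equal depth gave 1.30 for the first pair and 1.08, 1.15, 0.588 and 0.688 for stimulated over resting Th1 and the last 3. Smaller moves concerned stimulated Th1 over Th2 (1.19 at 5 times the input, 1.09 in a random 50% of the reads), Th17 over Th1 (0.501 at 6 RPM, 0.511 at 5 times) and Th17 over Th2 (0.630 at 3 RPM, 0.549 at 6 RPM, 0.583 at 2 times, 0.577 in a random 50%). The cause was not tested. At 3-fold in place of 2-fold, members lower in Th17 than in stimulated Th1 went from 41.7% to 1.699% (all passing windows 20.3%), those lower than stimulated Th2 from 24.3% to 0.485% (18.3%), and those higher in resting Th2 than naive from 20.1% to 4.13% (18.6%) and in resting Th1 than naive from 9.47% to 0.485% (10.9%). Over all alternatives, shares of members counted ran from 0.243 to 15.3% higher and 0 to 18.2% lower for stimulated over resting Th1, 0 to 18.0% and 0.243 to 11.4% for Th2, 0 to 24.4% and 0 to 9.95% for resting Th1 over naive, and 0.243 to 26.9% and 0 to 22.1% for resting Th2 over naive. They were 0 to 3.88% higher and 0.243 to 50.0% lower for Th17 over Th1, and 0 to 1.21% and 0 to 33.5% for Th17 over Th2. In regions with no other member in their flanks, an alternative also added later, 2 of 32 pooled ratios were reversed, resting Th1 over Th2 at 300 to 500 bp (1.004) and Th17 over Th1 at 1000 to 2000 bp (1.02), both with intervals that include 1. The 6 to 9 reads behind 4 RPM in the unstimulated libraries limit what a single window can show. No paired analysis was possible because each group has 1 library.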

Other observations

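The 782 windows that held at least 4 RPM in all 6 BRG1 libraries but missed the input condition had BRG1 levels close to those of the members, with medians of 7.24 RPM in naive cells, 9.40 and 9.70 in Th1 and Th2 at rest, and 10.2, 9.39 and 5.07 in stimulated Th1, Th2 and Th17. Reads that repeat a 5′ end and strand made up 78.4% of the input reads in these windows, against 14.5% in the members. In the BRG1 libraries the share was 76.4% in naive cells, 63.0% and 64.3% in Th1 and Th2 at rest, and 55.0%, 61.1% and 62.3% in stimulated Th1, Th2 and Th17. The highest input level among them was 48.7 RPM, and input exceeded all 6 BRG1 libraries in 1 window.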
